A study of Mus musculus with 2 samples.

Results

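The genes described here are 9 genes that set vascular tone through 3 signalling systems: the endothelin ligand Edn1, its converting enzyme Ece1 and its receptors Ednra and Ednrb, the endothelial nitric oxide synthase Nos3, and Ren1, Agt, Ace and Agtr1a of the renin-angiotensin system. They were chosen by gene symbol, and all 9 were found among the 32285 genes of the count tables. Their unique molecular identifier counts (UMIs, 1 per captured RNA molecule) were summed in each library and each cell class, and compared between the genotypes.

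The data were single-cell RNA-Seq of day 14 postischemic mouse kidneys, with 1 library for each of 2 genotypes. Control animals were Cre- littermates. The mutants, named PHDTiEC, carried floxed alleles of Phd1, Phd2 and Phd3 (the genes Egln2, Egln1 and Egln3) together with Cdh5-CreERT2, in which the endothelial Cdh5 promoter drives a tamoxifen-inducible Cre, so that the oxygen-sensing prolyl hydroxylases can be deleted in endothelium only. Both genotypes were adult males of 8 to 10 weeks, in which 1 renal artery was clamped for 25 minutes, and both were given tamoxifen afterwards (4 injections of 3 mg), so the controls share the ischemia and the drug. With 1 library per genotype no difference between genotypes could be tested against the spread between animals, and all intervals below cover counting error only; they are 95% exact intervals.

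Endothelin-1 is released as a precursor, cut to its active form by endothelin-converting enzyme, and constricts smooth muscle through the endothelin A receptor, while the endothelin B receptor on endothelium clears the peptide and couples to nitric oxide release. Nitric oxide made by endothelial synthase relaxes the neighbouring smooth muscle through soluble guanylate cyclase. In the renin-angiotensin system, renin from juxtaglomerular cells cuts angiotensinogen to angiotensin I, angiotensin-converting enzyme makes angiotensin II from it, and the type 1 receptor mediates constriction and sodium retention. Oxygen-sensing prolyl hydroxylases mark the HIF transcription factors for degradation, and HIF recognises the letters ACGTG or GCGTG in DNA.

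After filtering, 8548 cells of the Cre- library and 9309 of the library labelled PHDTiEC were kept, with a median of 7500 and 7898 UMIs per cell, and the whole libraries held 136004367 and 146758812 UMIs. Only 28 barcodes occurred in both. Clusters were named from marker genes, and the member genes took no part in the clustering. The endothelial-like cells (406 and 553) comprised medullary renal endothelial (mREC)-like cells (186 and 229), cortical (cREC)-like cells (127 and 211) and cluster 24 (93 and 113), which carried the pericyte and smooth muscle list at 7006 and 8277 CPM (counts per 1000000 UMIs of the class) beside the endothelial list at 5900 and 5567 CPM; 17.2% and 24.8% of its cells had high simulated-doublet scores. All 13 endothelial markers were detected in each of these classes. The floxed genes, read from their 3' ends, were not lower: in endothelial-like cells Egln1 measured 67.5 and 187 CPM, Egln2 36.8 and 39.2 CPM, and Egln3 24.6 and 146 CPM (Cre- first in every pair of values). Such reads can also come from a transcript that lacks a deleted exon, so these levels do not check the labels. Beside them stands a subcluster of endothelial-like cells with 79 cells in the library labelled PHDTiEC and 0 in Cre-, whose leading genes include Bnip3, Adm and Egln3, which are known targets of HIF. The median mitochondrial share was lower in the library labelled PHDTiEC in every class, at 4.21% and 2.84% in endothelial-like, 9.67% and 7.17% in pericyte-like, 12.6% and 9.73% in PT-like and 7.60% and 5.26% in thick ascending limb (TAL)-like cells, and its part in the results was not tested.

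The 250 bases before the transcription start are shown for Edn1, which was higher in endothelial-like cells of the library labelled PHDTiEC, and for Ece1, which was not, because HIF is the factor that the deleted hydroxylases regulate. They come from RefSeq on GRCm38.p6, on the + strand, at chr13:42301226-42301475 and at chr4:137861987-137862236. Capitals mark a match to ACGTG or GCGTG, searched on both strands, so that CACGT and CACGC are the same letters read on the other strand and a CACGTG counts on both.
Edn1: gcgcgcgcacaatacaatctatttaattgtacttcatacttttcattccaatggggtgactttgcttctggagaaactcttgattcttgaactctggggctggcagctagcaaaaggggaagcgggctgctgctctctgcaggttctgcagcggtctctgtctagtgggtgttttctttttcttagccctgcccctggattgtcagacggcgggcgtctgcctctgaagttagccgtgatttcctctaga
Ece1: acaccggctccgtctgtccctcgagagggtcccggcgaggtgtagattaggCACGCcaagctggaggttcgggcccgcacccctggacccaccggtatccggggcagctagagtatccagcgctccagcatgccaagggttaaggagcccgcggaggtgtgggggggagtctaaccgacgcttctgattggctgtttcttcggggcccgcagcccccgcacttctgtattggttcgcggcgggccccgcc
The Ece1 window printed is that of its first start, and its match lies 199 to 195 bases before that start; the RefSeq table lists 4 start windows for Ece1, of which the one at chr4:137913308-137913557 held 4 matches and the one at chr4:137920543-137920792 held none. The 250 bases of Edn1 held none. Promoter sequences were matched for 7 of the 9 members. Some have several windows, and 4 of the 11 member windows, from Ece1 and Ednrb, held a match, compared with 12679 of 32851 RefSeq promoter windows of the same length (38.6%). A match describes the letters only and is not evidence of binding.

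Edn1 (ENSMUSG00000021367, chr13:42301476-42307990, GRCm38, + strand, 5 exons), the vasoconstrictor ligand, was highest in mREC-like cells of both libraries and was higher there in the library labelled PHDTiEC. The mREC-like cells held 446 UMIs in Cre- and 1161 in the library labelled PHDTiEC, or 251 CPM (228 to 275) and 452 CPM (426 to 479), a log2 ratio of 0.85 (0.69 to 1.01). Here and below the log2 ratio is the library labelled PHDTiEC over Cre-, and these intervals of the levels did not overlap. Cells with at least 1 Edn1 UMI numbered 92 of 186 and 154 of 229. After each cell was thinned to 1000 UMIs, which left out 5 and 3 shallower cells, 16.6% (11.5 to 22.8) and 28.8% (22.95 to 35.1) of mREC-like cells still had an Edn1 UMI, compared with 49.5% and 67.2% unthinned. In T-like cells, which should lack the gene, 0.349% and 0.290% had an Edn1 UMI at a median depth of 3129 and 3254 UMIs, against 7030.5 and 8997 UMIs in mREC-like cells. Cells with 10 or more Edn1 UMIs numbered 11 in Cre- and 48 in the library labelled PHDTiEC, and they held 173 and 809 of the UMIs. Beside this, TAL markers in mREC-like cells summed to 205 and 25.7 CPM, with 5 and 4 of 5 detected, and macrophage markers to 514 and 368 CPM, with all 9 detected. Lists that were higher in the library labelled PHDTiEC were the descending vasa recta markers, at 731 and 1022 CPM with all 3 detected, the cortical capillary markers, at 1314 and 2035 CPM with all 5, and the lymphatic markers, at 53.4 and 111 CPM with 2 and 4 of 5. The part of these lists in the Edn1 level was not tested.

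**Figure D1:**
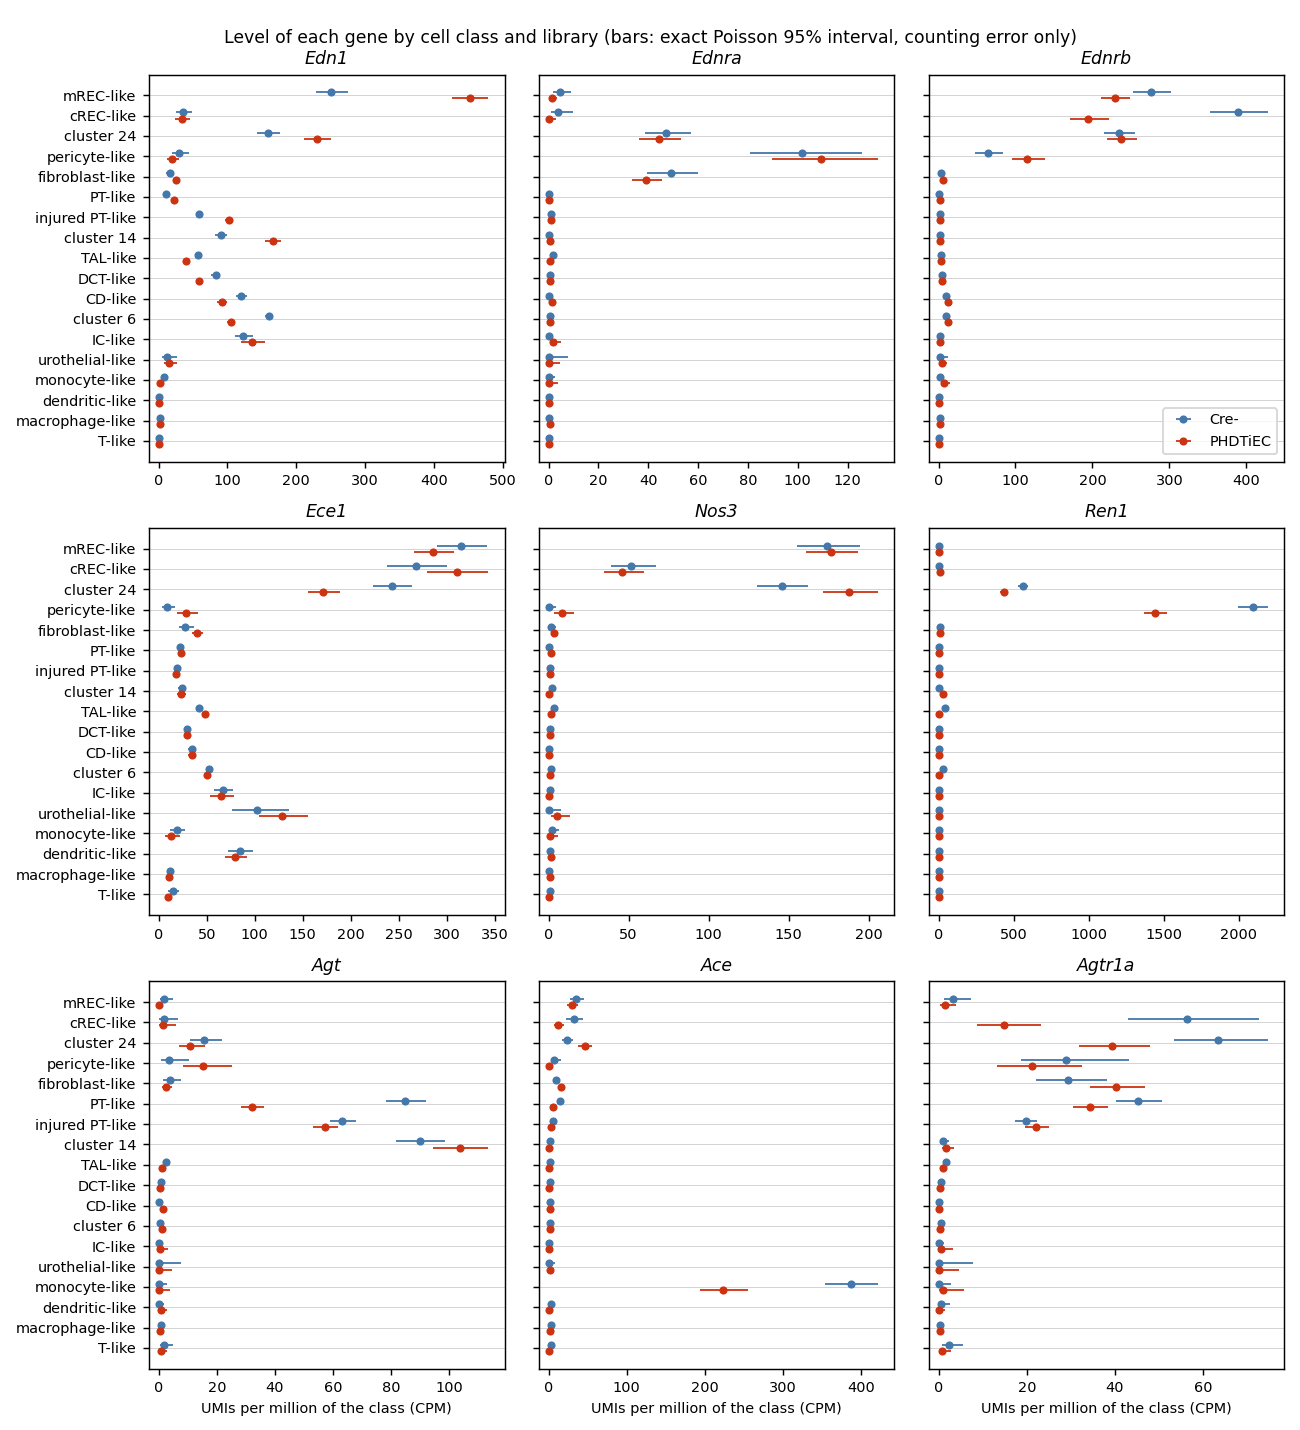
Level of each of the 9 genes in 18 cell classes, in CPM of the class, for the Cre- library and the library labelled PHDTiEC, with bars for the exact 95% Poisson interval. Edn1, Ece1, Ednrb and Nos3 peak in endothelial classes, Ren1 and Ednra in pericyte-like cells, Ace in monocyte-like cells and Agt in proximal tubule classes and cluster 14.

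The other endothelial classes did not share 1 pattern for Edn1. In cREC-like cells it was low in both libraries, at 35.7 CPM (38 UMIs) and 33.6 CPM (41 UMIs), with a log2 ratio of -0.09 (-0.76 to 0.59) that spans no difference. In cluster 24 it was 159 CPM in Cre- and 230 CPM in the library labelled PHDTiEC (log2 ratio 0.54, 0.34 to 0.73). Beside this and the other values of cluster 24 below, its descending vasa recta markers, all 3 detected, were at 875 and 330 CPM. Its TAL markers, all 5 detected, were at 166 and 603 CPM. Free RNA, as in barcodes that hold no cell, was estimated at 10.1% and 29.7% of its UMIs. In endothelial and pericyte-like classes this estimate was taken from tubular markers, so it is not independent of the TAL values, and doublets with tubular cells would raise it too. With free RNA so estimated subtracted, the log2 ratio of Edn1 was 0.84, and the part of the markers was not tested. Over all endothelial-like cells the 840 and 1776 UMIs came to 165 and 283 CPM (log2 ratio 0.78, 0.66 to 0.90), and the endothelial share of all Edn1 UMIs in the library was 10.4% in Cre- and 19.8% in the library labelled PHDTiEC. The highest single cell held 3.21% and 2.31% of the endothelial-like UMIs, so no 1 cell carried the level.

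**Figure D2:**
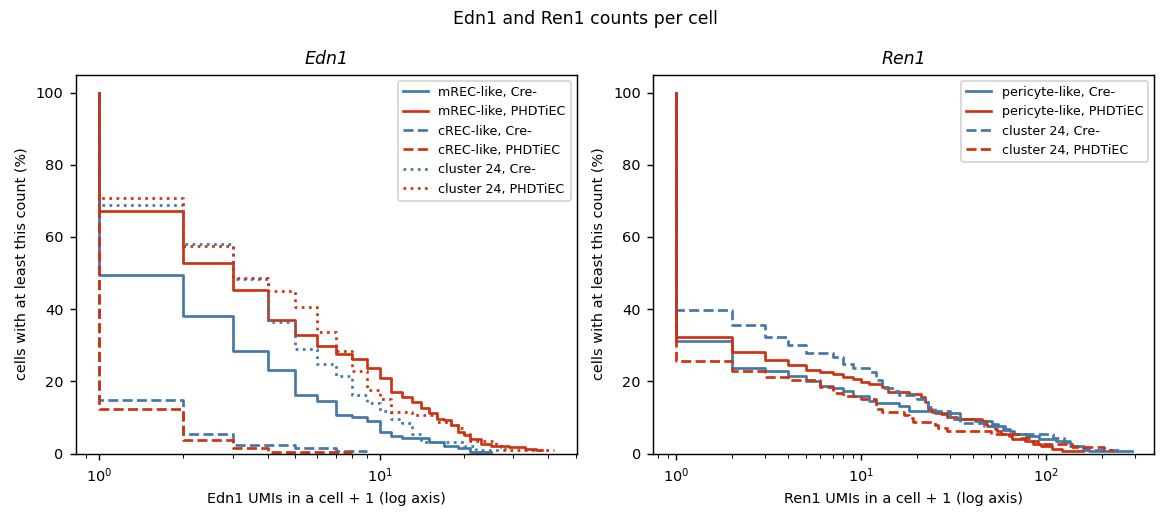
Share of cells (%) with at least a given count of Edn1 (left; mREC-like, cREC-like and cluster 24) and of Ren1 (right; pericyte-like cells and cluster 24), against UMIs in the cell + 1 on a log axis, for both libraries. The mREC-like Edn1 curve of the library labelled PHDTiEC lies above that of Cre- over most of its range, and Ren1 sits in a small share of cells with high counts.

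Endothelial-like cells were clustered again into 10 subclusters, named here E0 to E9. In the library labelled PHDTiEC the highest Edn1 level was in E8, which was led by Aqp1, Slc14a1 and Scin and is called descending vasa recta-like from its markers, while in Cre- it was in E7. E8 had 81 UMIs in 24 Cre- cells and 262 UMIs in 30 cells of the library labelled PHDTiEC, or 242 and 834 CPM (log2 ratio 1.78, 1.42 to 2.16). The 2 levels are well apart, and the UMIs were spread over 15 of 24 and 23 of 30 cells. E6, led by Gkn3 and Vwf of large vessels, was at 299 and 438 CPM (0.55, 0.16 to 0.94), and E7, led by Rspo3, Calca and Lgr5, at 357 and 402 CPM (0.17, -0.14 to 0.48). The capillary subcluster E0, led by Plvap, Rgcc and Aplnr, had only 8 and 26 Edn1 UMIs (20.6 and 45.5 CPM). E5 was made up of 79 cells of the library labelled PHDTiEC and 0 of Cre-, was led by Bnip3, Pgf, Adm and Egln3, and had Edn1 at 386 CPM. Leaving E5 out gave a log2 ratio of 0.64 in place of 0.78 over endothelial-like cells and of 0.94 in place of 0.85 over mREC-like cells. E9, which also carried macrophage genes, went the other way, at 236 and 81.8 CPM from 52 and 19 UMIs.

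**Figure D3:**
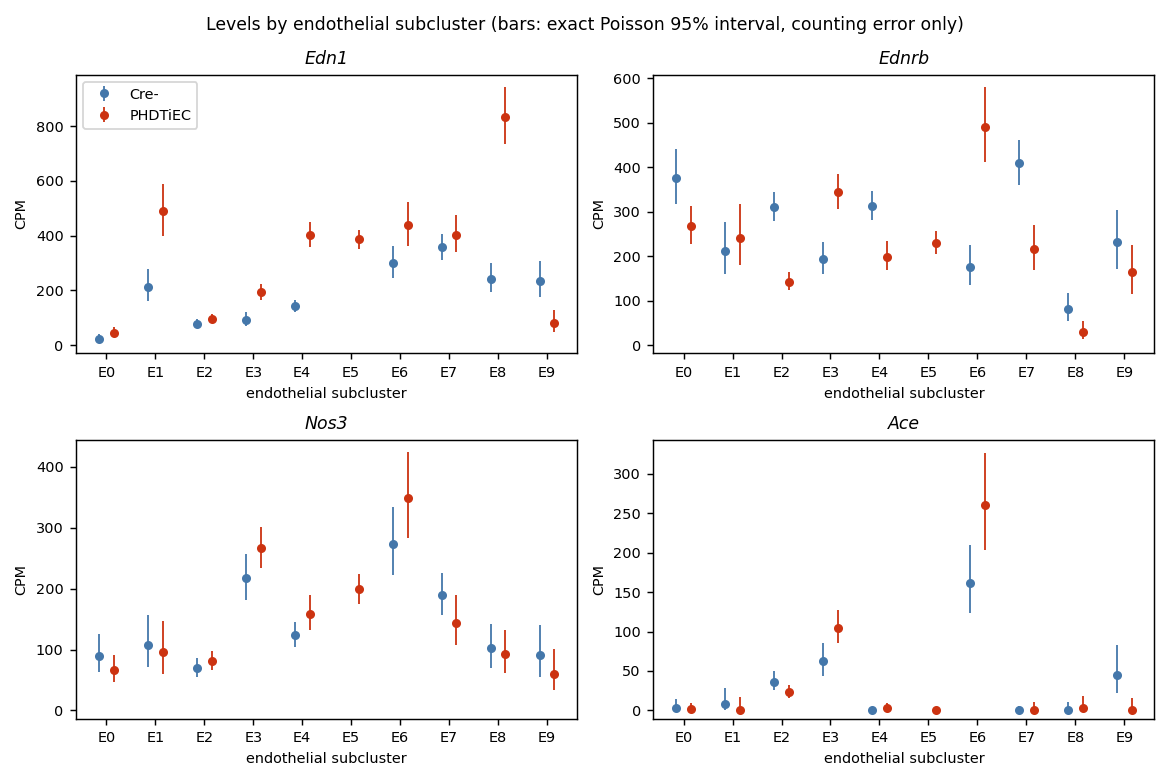
Edn1, Ednrb, Nos3 and Ace in the 10 endothelial-like subclusters E0 to E9, in CPM with exact 95% Poisson intervals, for each library; E5 holds cells of the library labelled PHDTiEC only. Edn1 stands out in E8 of the library labelled PHDTiEC at 834 CPM, while Ednrb in the same subcluster is at 28.6 CPM.

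Endothelial-like cells held a minority of the Edn1 UMIs, and tubular classes held more. In the distal nephron the level was lower in the library labelled PHDTiEC: 56.6 and 39.8 CPM in thick ascending limb (TAL)-like cells (log2 ratio -0.51, -0.67 to -0.34), 82.7 and 58.8 CPM in distal convoluted tubule-like cells (-0.49, -0.66 to -0.33) and 120 and 91.7 CPM in collecting duct-like cells (-0.39, -0.54 to -0.25). The leading genes of cluster 6 were those of intercalated and collecting duct cells. Cluster 6 held 34.8% of all Edn1 UMIs in Cre- and 23.4% in the library labelled PHDTiEC, at 160 and 104 CPM (-0.62, -0.70 to -0.53). Its cells had a median of 50001 UMIs, against 16021 in collecting duct-like and 12678 in intercalated-like cells, and 14.8% and 12.7% of them had high simulated-doublet scores, against 7.49% and 7.86% of all cells; without these the ratio was -0.59. The order was the opposite in the proximal tubule (PT): 11.1 CPM (75 UMIs) and 22.4 CPM (191 UMIs) in PT-like cells (1.02, 0.62 to 1.42), and 58.7 and 102.2 CPM in injured PT-like cells (0.80, 0.67 to 0.93). Cluster 14, led by Slc14a2 and Fst, was at 90.0 and 166 CPM (0.88, 0.71 to 1.06). Intercalated-like cells, at 123 and 136 CPM (0.14, -0.10 to 0.38), did not differ beyond counting error. Over all kept cells the opposite directions met at 68.0 and 67.8 CPM, a log2 ratio of 0.00, so the sum over the kidney shows none of these differences. Edn1 at 48.7 and 50.6 CPM was also present in barcodes with fewer than 100 UMIs, which hold free RNA, and the part of that RNA in the low PT-like level was not tested beyond subtracting it, which gave 1.44, while a mean over cells gave 1.76. In the same PT-like cells the 13 endothelial markers, all detected, summed to 15.8 and 36.4 CPM, the 7 mREC markers, with 3 and 6 detected, to 1.48 and 7.63 CPM and the injured PT markers to 349 and 176 CPM. In injured PT-like cells the injured PT markers, all 4 detected, summed to 2064 and 1416 CPM, TAL markers, all 5 detected, to 131 and 249 CPM, collecting duct markers, all 6 detected, to 152 and 235 CPM and fibroblast markers, with 8 and 9 of 9 detected, to 16.6 and 69.4 CPM. In collecting duct-like cells the markers of that class, all 6 detected, summed to 3601 and 4462 CPM, distal convoluted tubule markers, with 3 of 4 detected, to 508 and 302 CPM and fibroblast markers, with 7 and 9 of 9 detected, to 5.53 and 72.3 CPM. In TAL-like cells the endothelial markers, all 13 detected, summed to 144 and 85.8 CPM and the mREC markers, all 7 detected, to 45.2 and 16.4 CPM. Collecting duct markers there, all 6 detected, summed to 54.0 and 141 CPM and neutrophil markers, all 7 detected, to 11.6 and 50.8 CPM. The part of all these lists in the Edn1 levels was not tested.

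Ece1 (ENSMUSG00000057530, chr4:137862237-137965229, + strand), which makes the active peptide, followed endothelium across classes but did not follow Edn1 between libraries. It was at 315 CPM (560 UMIs) and 286 CPM (734 UMIs) in mREC-like cells, with a log2 ratio of -0.14 (-0.30 to 0.02), and at 268 and 310 CPM in cREC-like cells (0.21, -0.01 to 0.44). Neither ratio was away from 0 beyond counting error. In cluster 24 it was 243 CPM in Cre- and 171 CPM in the library labelled PHDTiEC (-0.50, -0.69 to -0.32). With free RNA subtracted the ratio in cluster 24 was -0.21. With cluster 24 left out the endothelial-like ratio of -0.16 (-0.26 to -0.05) became -0.0174; as a mean over cells it was 0.0186. Outside endothelium it was found at 103 and 128 CPM in urothelial-like cells, at 84.7 and 79.9 CPM in dendritic-like cells and at 67.1 and 64.8 CPM in intercalated-like cells, pairs that did not differ beyond counting error. Fibroblast-like cells had 27.7 CPM (52 UMIs) and 40.0 CPM (168 UMIs), a log2 ratio of 0.53 (0.07 to 1.01). Endothelial markers in fibroblast-like cells, with 12 and 13 of 13 detected, summed to 345 and 466 CPM and neutrophil markers, with 5 and 7 of 7 detected, to 50.1 and 218 CPM, and their part was not tested.

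Ednrb (ENSMUSG00000022122, chr14:103814625-103844402, - strand), the endothelin receptor of endothelium, was lower in the capillary class of the library labelled PHDTiEC. The cREC-like cells had 414 and 238 UMIs, or 389 CPM (352 to 428) in Cre- and 195 CPM (171 to 221) in the library labelled PHDTiEC, a log2 ratio of -0.997 (-1.23 to -0.76). The levels are apart, and after thinning to 1000 UMIs per cell 33.0% (24.6 to 42.4) and 16.3% (11.2 to 22.6) of cells had an Ednrb UMI, with 12 and 33 cells left out, compared with 64.6% and 44.5% unthinned and 0.349% and 0.145% in T-like cells. Beside this, the 5 TAL markers, all detected in both libraries, summed to 1366 CPM in Cre- and 246 CPM in the library labelled PHDTiEC in cREC-like cells, the 4 distal convoluted tubule markers, 3 of them detected in each library, to 137 and 9.01 CPM, the 9 macrophage markers to 744 and 1474 CPM, and the 3 mesangial markers to 153 and 101 CPM; their part in the Ednrb difference was not tested. Free RNA, estimated from tubular markers and so not independent of the TAL values, came to 49.9% and 16.1% of the UMIs of the class. Doublets with tubular cells would raise that estimate too. Subcluster E2, whose leading genes include Umod and Slc12a1, held 59 of the cREC-like cells. With free RNA so estimated subtracted, the log2 ratio was -1.74. Capillary subcluster E0, where Ednrb was 375 and 268 CPM (log2 ratio -0.49, -0.83 to -0.15), had the same direction.

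In mREC-like cells Ednrb was 276 and 229 CPM (-0.27, -0.45 to -0.09; -0.0521 as a mean over cells and -0.54 at resolution 0.4), and in cluster 24 it was 234 and 238 CPM (0.02, -0.15 to 0.19). Its subclusters differed: E6 had 176 CPM in Cre- and 491 CPM in the library labelled PHDTiEC (1.48, 1.04 to 1.93). E8, where Edn1 was highest in the library labelled PHDTiEC but not in Cre-, had 80.8 and 28.6 CPM from 27 and 9 UMIs (-1.50, -2.77 to -0.37). The mREC-like value therefore averages subclusters that point in opposite directions. Pericyte-like cells had 64.0 CPM (53 UMIs) and 116 CPM (114 UMIs), a log2 ratio of 0.85 (0.37 to 1.35), where the median over all genes was 0.11. Endothelial markers in these pericyte-like cells summed to 147 and 256 CPM, with all 13 detected in both libraries, and their part in the Ednrb level was not tested.

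Ednra (ENSMUSG00000031616, chr8:77663031-77724464, - strand), the constrictor receptor of smooth muscle, was highest in pericyte-like cells, and did not differ beyond counting error in its 3 highest classes. It was at 101.5 CPM (84 UMIs) and 109 CPM (108 UMIs) in pericyte-like cells (0.11, -0.32 to 0.54). Fibroblast-like cells had 49.0 and 39.1 CPM (-0.33, -0.70 to 0.06), and cluster 24 had 47.3 and 44.2 CPM (-0.10, -0.50 to 0.30). In PT-like cells 0 UMIs were counted in both libraries.

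**Figure D4:**
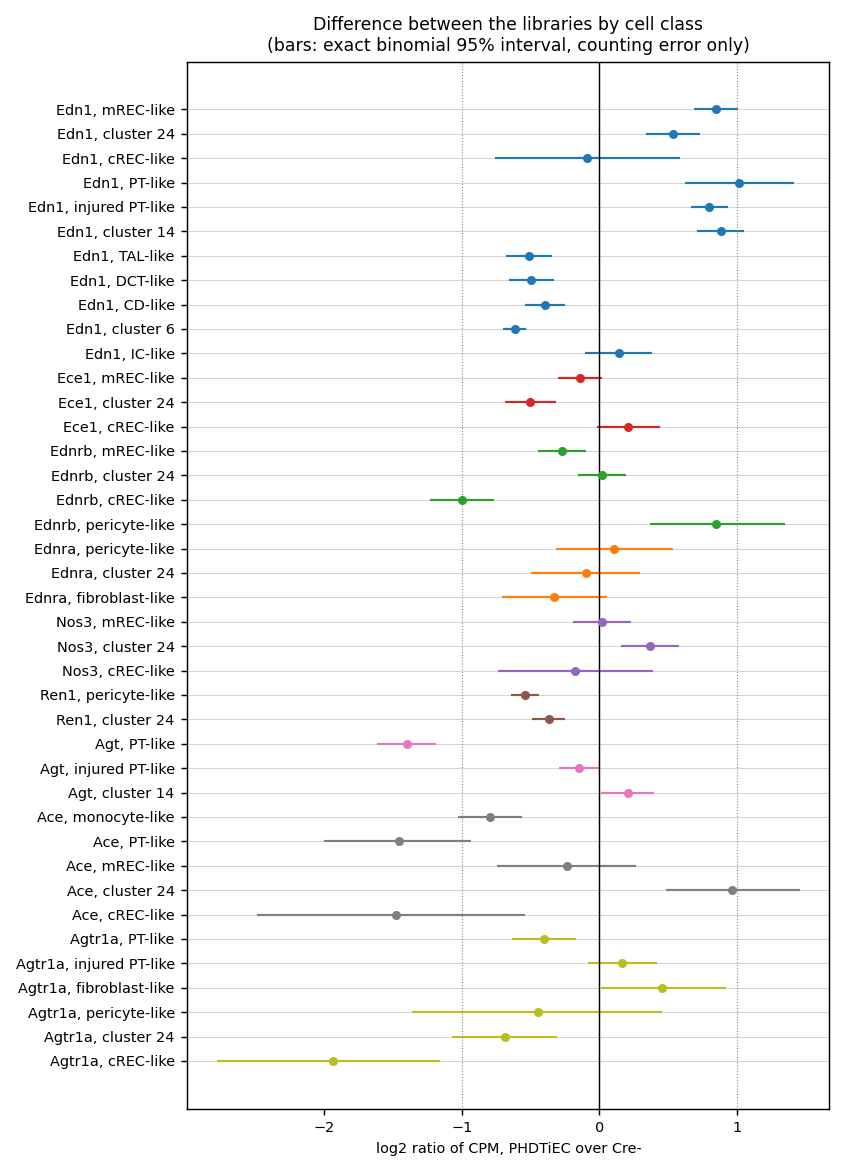
Log2 ratio of CPM (library labelled PHDTiEC over Cre-) for chosen pairs of gene and class, with exact 95% intervals for counting error, and dotted lines at 1 and -1. Not every pair with counts in both libraries is shown. Edn1 lies right of 0 in mREC-like cells, cluster 24 and proximal classes, at -0.09 in cREC-like cells, and left of 0 in TAL-like, distal convoluted tubule-like and collecting duct-like cells and cluster 6, Agt and Ace in PT-like cells lie left of the -1 line, and Nos3 in mREC-like cells sits at 0.02.

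Nos3 (ENSMUSG00000028978, chr5:24364810-24384474, + strand) was counted mostly in endothelial-like cells, which held 84.1% of its UMIs in Cre- and 87.4% in the library labelled PHDTiEC. The mREC-like cells had 309 and 453 UMIs, or 174 CPM (155 to 194) and 176 CPM (160 to 193), a log2 ratio of 0.02 (-0.19 to 0.23). The 2 levels overlap, in the same cells in which those of Edn1 did not. In cREC-like cells Nos3 was lower in level, at 51.7 and 45.9 CPM (-0.17, -0.74 to 0.39). Cluster 24 had 145 and 188 CPM (0.37, 0.16 to 0.58), and all endothelial-like cells 136 and 156 CPM (0.20, 0.05 to 0.34). As a mean over cells the endothelial-like ratio was -0.0862. Without subclusters E1, E2, E3, E4 and E9, which carry genes of other cell types or mitochondrial genes, it was 0.0032, so the direction depended on the summary.

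Ren1 (ENSMUSG00000070645, chr1:133350510-133360325, + strand), renin, was counted in a few cells with very high counts. Pericyte-like cells, the class that includes renin cells, had 1731 and 1422 UMIs, or 2092 CPM (1994 to 2193) and 1442 CPM (1368 to 1518), from 45 of 144 and 47 of 146 cells (log2 ratio -0.54, -0.64 to -0.44). The cells with 10 or more Ren1 UMIs numbered 23 and 29 and held 1665 and 1361 of the UMIs, and the highest cell held 288 UMIs (16.6%) in Cre- and 157 UMIs (11.04%) in the library labelled PHDTiEC. The counting interval is therefore narrower than the spread between cells. The difference also depended on mixed subclusters: P4, which also carried macrophage genes, held 657 and 129 Ren1 UMIs in 12 and 10 cells, and P3, which carried tubular genes, held 1 and 438 in 5 and 18 cells. Without these 2 subclusters the log2 ratio was -0.12 (-0.25 to 0.01), and with likely doublets left out it was -0.13. Macrophage markers in pericyte-like cells summed to 1245 and 1059 CPM with all 9 detected, TAL markers to 459 and 852 CPM with all 5, and neutrophil markers to 863 and 14.2 CPM with 6 and 3 of 7; their part was not tested.

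Counting cells rich in Ren1 over all classes gave nearly equal numbers. In Cre- 53 of 8548 cells and in the library labelled PHDTiEC 51 of 9309 had 10 or more Ren1 UMIs, and they held 93.8% and 92.9% of all Ren1 UMIs. Of them, 23 and 29 were pericyte-like cells and 22 and 17 were cells of cluster 24. Over all of them the endothelial genes Pecam1, at 285 and 257 CPM, and Cldn5, at 520 and 446 CPM, were also counted. In those of the pericyte-like class Pecam1 was at 0 and 41.2 CPM and Cldn5 at 7.05 and 65.2 CPM. In those of cluster 24 Pecam1 was at 505 and 576 CPM and Cldn5 at 891 and 1118 CPM, so the latter need not all be renin cells. In cluster 24 the Ren1 level was 562 and 435 CPM (-0.37, -0.49 to -0.25), and without likely doublets the ratio turned to 0.27. The tubular values rested on 1 or 2 cells. In Cre-, 1 TAL-like cell held 360 of the 500 UMIs, where the library labelled PHDTiEC had 53. In cluster 6, 2 cells held 487 of the 498 UMIs in Cre-, where the library labelled PHDTiEC had 7. In cluster 14, 1 cell held 143 of the 150 UMIs in the library labelled PHDTiEC, where Cre- had 26. Akr1b7, a gene of renin cells, was 457 and 239 CPM in pericyte-like cells (-0.93, -1.17 to -0.69), a ratio that was not recomputed without P3 and P4. Among cells with 10 or more Ren1 UMIs it was 938 and 439 CPM in the pericyte-like class. It was 252 and 278 CPM in those of cluster 24, and 301 and 369 CPM in those of all classes together. Some mouse strains carry Ren2, a near copy of Ren1, whose reads could be counted with either, so the level of Ren1 is uncertain to that extent.

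Agt (ENSMUSG00000031980, chr8:124556534-124569706, - strand), angiotensinogen, was lower in PT-like cells of the library labelled PHDTiEC. There were 574 and 274 UMIs in 167 of 292 and 134 of 386 cells, or 84.9 CPM (78.1 to 92.2) and 32.2 CPM (28.5 to 36.2), a log2 ratio of -1.40 (-1.61 to -1.19). The 2 levels do not overlap. PT markers were nearly level in these cells, with all 10 detected and a sum of 6899 and 6611 CPM, while the 3 markers of the proximal straight tubule, all detected, summed to 37.0 and 10.6 CPM, the 4 markers of injured PT, all detected, to 349 and 176 CPM, and the neutrophil markers, with 6 of 7 detected, to 139 and 14.9 CPM. Whether these shifts take part in the Agt difference was not tested. In injured PT-like cells Agt was 63.2 and 57.2 CPM (-0.14, -0.29 to 0.00), and with other clusterings it ranged from -0.60 at resolution 0.4 to 0.33 when cells were classed by their own markers. Cluster 14 had 89.8 and 104 CPM (0.21, 0.02 to 0.40), and without likely doublets the ratio there was -0.0028.

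Ace (ENSMUSG00000020681, chr11:105967945-105989964, + strand), angiotensin-converting enzyme, was highest in monocyte-like cells, which were led by Chil3, Adgre4, Treml4 and Ear2. Their 519 and 212 UMIs came to 387 CPM (354 to 421) and 223 CPM (194 to 256), with the gene seen in 154 of 240 and 66 of 161 cells (log2 ratio -0.79, -1.03 to -0.56). Monocyte-like cells held 50.05% of all Ace UMIs in Cre- and 30.3% in the library labelled PHDTiEC. Monocyte markers in the class, with all 6 detected, summed to 4367 and 5933 CPM and macrophage markers, all 9 detected, to 2341 and 1798 CPM. Neutrophil markers there, all 7 detected, summed to 4587 and 4507 CPM, and the part of these lists in the Ace level was not tested. In PT-like cells, where the enzyme sits on the brush border, Ace was 14.5 CPM (98 UMIs) and 5.28 CPM (45 UMIs), a log2 ratio of -1.46 (-1.999 to -0.93). The same shifts in the proximal straight tubule, injured PT and neutrophil markers stand beside this value, and their part in it was not tested.

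In endothelium Ace differed between vessel types. Over endothelial-like cells it was 29.3 and 32.6 CPM (0.16, -0.16 to 0.47), with no difference beyond counting error, and the sign was not stable: it was -0.51 without cluster 24 and 0.48 without E5. The large-vessel subcluster E6, which Ace helped to lead, had 162 CPM (58 UMIs) and 260 CPM (73 UMIs), a log2 ratio of 0.68 (0.16 to 1.203). In cREC-like cells it was 31.9 and 11.5 CPM, from 34 and 14 UMIs (-1.48, -2.49 to -0.54), and in cluster 24 it was 23.7 and 46.2 CPM (0.97, 0.48 to 1.46). TAL markers in cREC-like cells summed to 1366 and 246 CPM and distal convoluted tubule markers to 137 and 9.01 CPM. Free RNA, estimated from such tubular markers, came to 49.9% and 16.1% of their UMIs, and the part of these shifts in the Ace level was not tested.

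Agtr1a (ENSMUSG00000049115, chr13:30336441-30382867, + strand), the main angiotensin II receptor of the mouse kidney, had no single dominant class. Its highest level in Cre- was in cluster 24, at 63.4 CPM and 39.3 CPM from 142 and 98 UMIs (log2 ratio -0.69, -1.07 to -0.31), and in the library labelled PHDTiEC in fibroblast-like cells. It was at 45.3 and 34.3 CPM in PT-like cells (306 and 292 UMIs; log2 ratio -0.40, -0.64 to -0.16), at 29.3 and 40.2 CPM in fibroblast-like cells (55 and 169 UMIs; 0.46, 0.01 to 0.92) and at 29.003 and 21.3 CPM in pericyte-like cells (24 and 21 UMIs; -0.45, -1.36 to 0.46). PT-like and fibroblast-like cells differ in direction and the pericyte-like interval spans 0. Beside the cluster 24 value, the make-up of that cluster differed between libraries. E4, mostly cells of cluster 24 and with Col1a2, Notch3 and Agtr1a among its leading genes, held 48 and 33 cells. E3, also of cluster 24 and led by Ren1 and Acta2, held 30 and 52 cells, and the part of this shift was not tested. In endothelial-like cells the 208 and 120 UMIs came to 40.9 and 19.1 CPM (-1.10, -1.43 to -0.77). That ratio was -1.9998 without cluster 24 and -0.11 (-3.24 to 3.47) without subclusters E1, E2, E3, E4 and E9, which carry genes of other cell types or mitochondrial genes, and in cREC-like cells the 60 and 18 UMIs came from 13 and 10 cells. Reads of the paralog Agtr1b can be counted with Agtr1a, which makes the level uncertain to that extent.

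A log2 ratio of 1 or more, or of -1 or less, was counted over the members and over all genes with at least 10 UMIs in the class. In endothelial-like cells 0 of 9 members were at least 1 higher, where 3.38% of all genes were, and 1 of 9 (Agtr1a) was at least 1 lower, where 3.08% were. In mREC-like cells 0 of 8 members were higher (4.2% of all genes) and 3 of 8 were lower (4.03%), namely Ednra, Ren1 and Agtr1a, which had 3 or 4 UMIs in the library labelled PHDTiEC. In pericyte-like cells 2 of 7 were higher (9.02%), Ece1 with 7 and 28 UMIs and Agt, and 0 were lower (3.55%). Fibroblast-like cells had 0 of 9 in either direction, with 6.41% and 2.77% of all genes. In PT-like cells Edn1 and Nos3, the latter with 3 and 10 UMIs, were higher (2 of 7, 3.11% of all genes) and Agt and Ace were lower (2 of 7, 3.14%). The cREC-like cells had 1 of 7 higher (Ren1; 4.62% of all genes) and 2 of 7 lower (Ace and Agtr1a; 8.23%). TAL-like cells had 0 of 9 higher (3.13%) and 5 of 9 lower (2.59%), namely Ednra, Nos3, Ren1, Agt and Ace, and the median log2 ratio of the members there was -1.09, compared with 0.09 over all genes. Of these 5, Ren1 rested mostly on the single cell described above, and the others had low levels, from 3.67 and 1.44 CPM for Nos3 (44 and 19 UMIs) to 1.67 and 0.604 CPM for Ednra (20 and 8 UMIs). In the same TAL-like cells the endothelial markers summed to 144 and 85.8 CPM, with all 13 detected, and the pericyte and smooth muscle markers to 216 and 134 CPM, with all 10 detected, and their part was not tested.

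The wider pathways were described with 33 further genes. In endothelial-like cells 26 of them could be compared, 0 were at least 1 higher (3.38% of all genes) and only Edn3 was at least 1 lower (3.08%), and their median log2 ratio was -0.04 compared with -0.01 over all genes. The 17 nitric oxide genes among them had a median of -0.02, and all 17 lay between -1 and 1. Cav1, Ass1 and Nostrin, given next, are from the higher side, and the values of the genes below the median are not given here. Cav1, the caveolar protein that binds and restrains endothelial nitric oxide synthase, was at 193 CPM (983 UMIs) and 326 CPM (2049 UMIs), with a ratio of 0.75 (0.64 to 0.87). Ass1, which recycles citrulline to the arginine that synthases use, was 46.4 and 62.3 CPM (0.42, 0.19 to 0.66), and Nostrin, which traffics Nos3, was 60.8 and 72.1 CPM (0.25, 0.04 to 0.46). In pericyte-like cells 19 could be compared, of which 3, Mme and Slc7a1 among them, were at least 1 higher (9.02% of all genes) and 0 at least 1 lower (3.55%). The soluble guanylate cyclase subunits Gucy1a1 and Gucy1b1, the receptor of nitric oxide, were lower there: 226 and 170 CPM (-0.41, -0.72 to -0.10) and 167 and 106 CPM (-0.65, -1.03 to -0.27). Beside this, free RNA of pericyte-like cells, estimated from tubular markers, came to 23.2% and 36.6% of their UMIs. TAL markers there were at 459 and 852 CPM and P3 held 5 and 18 cells, and the part of these shifts in the values was not tested. In fibroblast-like cells Mme and Nr3c2 of 24 were at least 1 higher (6.41% of all genes) and 0 lower (2.77%), and in mREC-like cells, where 20 could be compared, Nos2 was at least 1 higher (4.2%) and 2, Pde5a among them, were at least 1 lower (4.03%). In PT-like cells 19 could be compared and Nostrin and Gucy1a1 were at least 1 higher, with few UMIs, where 3.11% of all genes were, and 0 were at least 1 lower (3.14%); the angiotensin-degrading peptidase Enpep was 78.0 and 64.3 CPM (-0.28, -0.45 to -0.10).

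The genes whose level pattern over 28 classes was most like each member's were found from the correlation of log2(CPM + 10) among 13243 genes, taking the lower r of the 2 libraries. The points share libraries and depth, and no test was made. Nos3 was most like Hspa12b (r = 0.98), Ednra like Prkg1 (0.97), Ednrb like Esam (0.96) and Ren1 like Akr1b7 (0.95). Edn1 was most like Fam171a1 (0.90), Ace like Nxpe4 (0.84), Ece1 like Smad1 (0.83) and Agtr1a like Igfbp4 (0.81).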

How the data were processed

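Single-cell RNA-Seq libraries (10X 3' v3.1) of 1 Cre- and 1 PHDTiEC kidney were analysed. The authors deposited raw UMI count matrices made with Cell Ranger (version 4 in the file header) on mm10, with all barcodes kept; 0 columns were left unmapped. Barcodes with 500 to 100000 UMIs, at least 200 genes and at most 50% mitochondrial counts were kept. Cells were clustered with Seurat 5.3.0 (R 4.3.3; 2000 variable genes without the 9 members, 6 of which were among them, 20 principal components, resolution 0.8), and clusters were named from marker lists. Counts were summed by class and library and given as CPM; level intervals are exact Poisson, ratio and share intervals exact Clopper-Pearson, at 95%. Depth limits precision, since a count of 0 allows up to 3 counts. The 9 members, 33 pathway genes, the floxed genes and the 3 most alike genes were named by rule; a few of the genes so named are not reported here, and members and lists were chosen with earlier results of these data known. Scripts (Python 3.11.15, pandas 2.3.3, scipy 1.17.1) were tested on simulated data. Doublets were not removed; leaving out 640 and 732 cells with high simulated-doublet scores was an alternative, beside other resolutions, 30 components, members among the variable genes, classing by own markers, TMM scaling (edgeR 4.0.16), free RNA subtraction, means over cells and leaving out single clusters or subclusters, the last chosen after seeing the data.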

Additional observations from a re-analysis of the deposited data

Results flagged for a closer look

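Among named classes with at least 100 UMIs of the gene over both libraries, the genotype ratio pointed in opposite directions in 2 classes, each with an interval away from 0, for 4 of the members, and the difference between the classes was not tested in any of them, since each genotype has 1 library. Edn1 had a log2 ratio of 1.02 in PT-like cells and -0.51 in TAL-like cells, beside the marker shifts given above for both classes. Ednrb had 0.85 in pericyte-like cells and -1.0 in cREC-like cells. For Ece1 the values were 0.53 in fibroblast-like cells and -0.16 in endothelial-like cells, but the latter was -0.0174 without cluster 24 and 0.0186 as a mean over cells. Agtr1a had 0.46 in fibroblast-like cells and -1.1 in endothelial-like cells, the latter resting on the mixed subclusters described above. With unnamed clusters counted as well, Ace (-1.46 in PT-like cells and 0.97 in cluster 24), Agt (-1.40 and 0.21 in cluster 14) and Ren1 (-0.54 in pericyte-like cells and 2.65 in cluster 14, mostly from 1 cell) also did so. The cluster 14 value of Agt was -0.0028 without likely doublets, and the pericyte-like value of Ren1 was -0.12 (-0.25 to 0.01) without P3 and P4, so these contrasts of Agt and Ren1 did not hold under those alternatives.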

How the results depend on the processing

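No paired analysis was possible because each genotype has 1 library. Of 197 alternative values for the 13 planned results, 170 stayed within the counting interval, 25 moved beyond it and 2 changed the sign of a ratio whose interval had excluded 0; for 22 further values the numbers were 262 of 298, 34 and 2. Counting ratios whose interval included 0 as well, 9 and 11 alternatives had the other sign. The cause was not tested. With likely doublets left out, Ren1 was -0.13 in pericyte-like cells and 0.27 in cluster 24, and Agt was -0.0028 in cluster 14. Without P3 and P4 pericyte-like Ren1 was -0.12, with TMM -0.65, without its highest cell -0.42, with free RNA subtracted -0.26 and by own markers -0.86. Classing by own markers also gave 0.90 for endothelial-like Edn1, -0.58 for Ace there, -0.32 for pericyte-like Ednra and -0.86 for collecting duct-like Edn1. Without cluster 24 the endothelial-like values were 0.90 for Edn1, -0.55 for Ednrb, -0.0174 for Ece1 and -0.51 for Ace. Without E5 they were 0.64 for Edn1 and 0.48 for Ace, and without subclusters E1, E2, E3, E4 and E9 they were 0.60 for Edn1, 0.0032 for Nos3 and -0.35 for Ace. As means over cells, endothelial-like Ece1 was 0.0186, Nos3 -0.0862 and Ace -0.17, pericyte-like Ednra 0.61 and Agtr1a 0.82, fibroblast-like Agtr1a 0.99 and PT-like Agt -1.19, and at resolution 1.2 the last was -1.18. Endothelial-like Edn1 thus ranged from 0.60 to 0.90. The class with the highest level was kept for 8 or 9 of the 9 members. Without the minimum of 10 UMIs, 11.8% and 10.5% of genes in endothelial-like cells were past a log2 ratio of 1 or -1. Leaving out each replicate could not be run with 1 library per genotype.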
